A study of Homo sapiens with 15 samples.

Results

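HCC1937 is an established human triple negative breast cancer line, and the comparison here sets its cancer stem cell (CSC) fraction against its non-CSC fraction. The study sorted cultured cells by surface protein: CSCs are CD44+/CD24-/low, and non-CSCs are the remaining cells. Members were chosen by column of the deposited FPKM table (a level scaled to transcript length and library size): 3 CSC and 3 non-CSC libraries of HCC1937, 6 of 15 libraries in the series. Of 33158 genes in that table, 11773 had a mean of at least 1 FPKM over these 6 libraries and were tested, while 21385 lay under that level. Both fractions share 1 genotype, 1 medium (RPMI with fetal bovine serum) and no named treatment, and mRNA was taken with oligo(dT) beads. Since all 6 libraries come from 1 line, nothing here speaks for other tumours. The replicates are not stated to be separate cultures or sorts, so each p-value measures only the spread between these libraries, which may be technical.

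Breast cancer cells with high CD44 and low CD24 on their surface are widely used as a stem-like fraction, because they start tumours from few cells. Epithelial cells are held together by E-cadherin junctions, tight junctions and desmosomes, and factors such as GRHL2, OVOL1 and ELF3 keep those genes active. In the epithelial-mesenchymal transition (EMT), ZEB, SNAIL and TWIST factors bind short E-box sequences in epithelial promoters and repress them, while vimentin, N-cadherin and matrix genes become active.

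The sort was read from its own markers. CD24 was at 23.6, 22.5 and 23.9 FPKM in CSCs against 167, 141 and 142 in non-CSCs. All 3 CSC values lay far under the non-CSC values (log2 fold change -2.67, standard error 0.09, n = 3 against 3), and the exact permutation p was 0.10, the smallest possible with 3 against 3. CD44 was at 113, 100.4 and 106 FPKM in CSCs against 96.0, 95.1 and 102 in non-CSCs. These groups overlapped, and CD44 RNA did not pass (log2 fold change 0.12, limma adjusted p 0.270, exact permutation p 0.20). Of 12 tested surface markers used for sorting breast stem cells, 6 rose, 2 fell and 4 did not pass, with a median log2 fold change of 0.32 against -0.03 over all genes tested; 31.6% of all genes passed in either direction. PROCR, the protein C receptor, rose from 10.1 to 15.6 FPKM, NT5E, the CD73 ectonucleotidase, from 10.8 to 31.6, and ANPEP, the CD13 aminopeptidase, from 128 to 211. EPCAM, an epithelial adhesion protein, fell from 83.6 to 17.7, and the integrin beta chain ITGB1, abundant in both fractions, rose from 299.9 to 429.

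Most defining markers of other cell types were near 0, with exceptions. Of 16 leukocyte genes, 4 were listed at 0 in all 6 libraries, among them CD3E, and PTPRC (CD45) stayed under 0.10 FPKM in each. The summed leukocyte list was 109, 108 and 94.4 FPKM in CSCs against 72.5, 74.5 and 69.3 in non-CSCs, led by CD14, a lipopolysaccharide co-receptor that epithelial cells also make (60.3 against 30.3); without CD14 the means were 43.6 and 41.8. Nearly all of the rest was CD68, a lysosomal protein not confined to macrophages, at 42.8, 44.2 and 39.9 FPKM in CSCs against 41.4, 39.7 and 38.9 in non-CSCs. For 10 fibroblast genes the sum was 16.1, 15.6 and 15.3 against 6.87, 8.84 and 8.90 FPKM, led by COL1A1, the collagen I chain (11.04 against 6.76); without COL1A1 the means were 4.64 and 1.44. The 8 endothelial genes summed to 4.72, 4.003 and 4.40 against 6.36, 5.84 and 6.21 FPKM, led by EGFL7 (2.62 against 3.48). Erythroid genes, 6 in all, came to 0.0484 against 0.119 FPKM on average, led by SLC4A1. The part of other cells in the results was not tested. In a bulk library, fewer cells of a type and less RNA per cell cannot be told apart.

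Loss of expression was the larger side of the difference. Genes are called changed here when the adjusted p (limma, Benjamini-Hochberg over all 11773 genes) is at most 0.05, and called higher or lower when the log2 fold change is also at least 1 in size. In CSCs 257 genes were called higher (2.18% of those tested) and 615 lower (5.22%), so 29.5% of 872 calls were higher. Without the fold limit 3722 genes passed (31.6%): 1554 rose (13.2%) and 2168 fell (18.4%), and 2850 of them moved by less than a log2 fold change of 1. With log2 fold changes of 2 or more in size, 40 genes were higher and 198 lower; at 3, 1 gene was higher and 34 were lower. The genes called lower had a median of 7.39 FPKM in non-CSCs and 2.27 in CSCs, whereas those called higher had 1.89 in non-CSCs and 5.38 in CSCs. All 872 called genes had groups that did not overlap, as 5512 genes did in all (46.8%). Correlation between libraries of 1 fraction was 0.958 to 0.966 over 6 pairs, and across fractions 0.910 to 0.927 over 9 pairs. Library sums differed, at 345131, 312475 and 306225 FPKM in CSCs against 354299, 366532 and 330310 in non-CSCs. Rescaling to equal sums (TPM) moved the median of all genes by 0.12, from -0.03 to 0.10, and made 40.0% of calls higher; list medians below are therefore read relative to the median of all genes. Where an alternative (pseudocount, scaling or 1 library left out) turned the sign of a list median or moved it by over 1.5 times, its lowest and highest values are given as a range, with their settings where the sign turned. Fold changes on log2(FPKM+0.1) understate genes at low levels, and because depth is not known no interval is given for counts of reads.

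**Figure D1:**
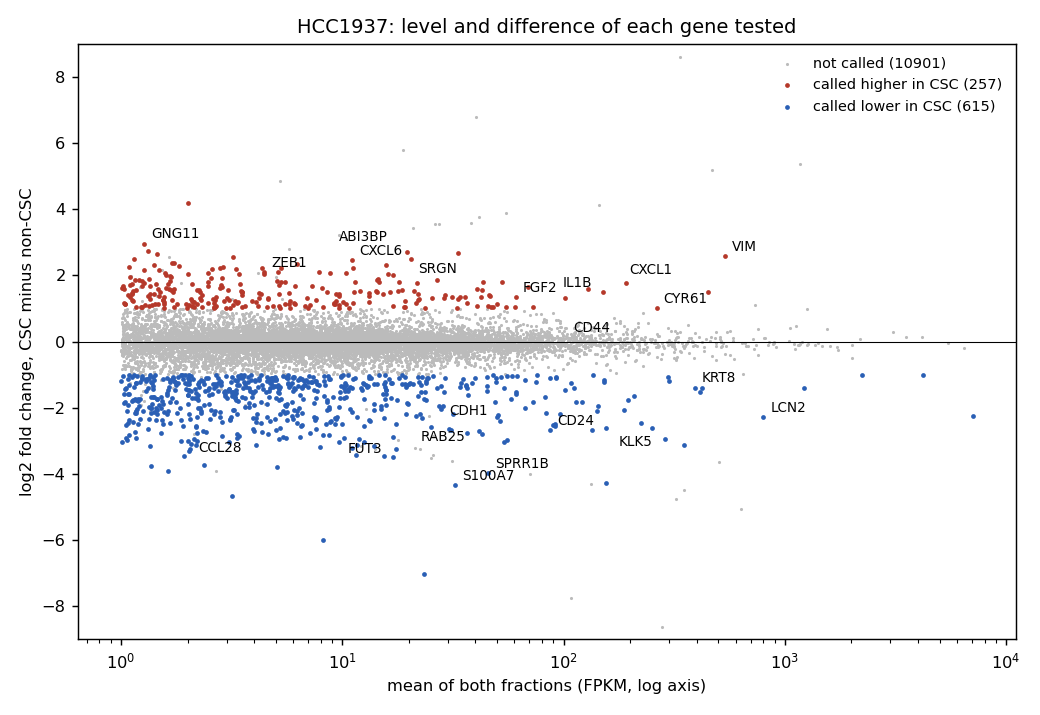
Level and difference for 11773 tested genes: mean FPKM over the 6 libraries, on a log axis, against the log2 fold change, CSC minus non-CSC. Of them 257 were called higher and 615 lower.

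Mesenchymal genes rose. VIM, the intermediate filament of mesenchymal cells, was at 1012, 882 and 857 FPKM in CSCs against 121, 187 and 160.2 in non-CSCs. Every CSC library stood well over every non-CSC library (log2 fold change 2.57, standard error 0.16, adjusted p 7.84e-05). ZEB1, a repressor of E-cadherin, was at 6.77, 7.22 and 7.67 FPKM in CSCs against 1.32, 1.71 and 1.87 in non-CSCs. Its groups did not overlap (log2 fold change 2.09, adjusted p 7.19e-05), and its paralog ZEB2 moved with it, from 0.560 to 3.10 FPKM (2.30). TWIST1 rose from 0.728 to 2.46 FPKM (1.63, adjusted p 2.20e-05). SNAI1 was at 10.2, 10.7 and 9.05 FPKM in CSCs against 10.3, 8.41 and 8.89 in non-CSCs, with overlapping groups and adjusted p 0.431. SNAI2 was at 5.40, 5.77 and 5.25 FPKM in CSCs against 4.08, 5.04 and 3.66 in non-CSCs. Its groups did not overlap, yet it missed the threshold (adjusted p 0.0624); it passed under TPM (0.0145), upper quartile (0.0291) and quantile scaling (0.0278), with a trend in eBayes (0.0476, robust 0.0448), in the fit over 15 libraries (0.0180), with replicate as a block (0.0414) and without non-CSC replicate 2 (0.0148). CDH2, N-cadherin, rose from 8.08 ± 1.09 to 28.2 ± 0.416 FPKM (mean ± SD, n = 3; log2 fold change 1.80). Of 20 tested EMT regulators and mesenchymal markers, 14 rose, none fell and 6 did not pass, with a median of 1.24 against -0.03 for all genes. SPARC, a collagen-binding matrix protein, went from 19.3 to 67.4 FPKM, FSTL1, a secreted glycoprotein, from 64.9 to 194, and the receptor kinase AXL from 31.0 to 68.6.

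Epithelial junction genes fell as a group. CDH1, the E-cadherin of adherens junctions, was at 15.4, 17.4 and 17.8 FPKM in CSCs against 83.1, 79.3 and 85.9 in non-CSCs. The CSC values were about equal to each other and all far under the non-CSC values (log2 fold change -2.29, standard error 0.08, adjusted p 1.26e-05). Of 30 tested junction and polarity genes, 28 fell, none rose and 2 did not pass, with a median of -1.43. Tight junction genes took part: CLDN7 was at 50.8, 51.1 and 49.0 FPKM in CSCs against 192, 184 and 159.6 in non-CSCs, and CLDN4 fell from 159 ± 15.4 to 34.8 ± 5.46 FPKM. No CSC library reached a non-CSC value for either claudin. TJP3, a scaffold under the claudins, fell from 16.9 to 2.91 FPKM (-2.50), DSG3, a desmosomal cadherin, from 10.04 to 1.91 (-2.36), and CDH3, P-cadherin, from 189 to 52.7 (-1.84). In CSCs CDH1 was still at 16.9 FPKM, beside 28.2 for N-cadherin.

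Regulators that keep cells epithelial fell more than the junctions did. OVOL1, a zinc finger repressor of EMT, was at 1.01, 1.13 and 1.19 FPKM in CSCs against 9.84, 9.55 and 8.46 in non-CSCs. GRHL2, which activates CDH1 and claudin genes, was at 1.11, 1.15 and 1.49 FPKM in CSCs against 7.77, 6.86 and 7.49 in non-CSCs. In both genes the non-CSC libraries were all high and the CSC libraries all low (log2 fold change -2.96 and -2.47, adjusted p 1.26e-05 and 2.81e-05). ELF3, an epithelial ETS factor, fell from 87.1 to 16.4 FPKM, and the splicing regulators ESRP1 and ESRP2 from 51.9 to 11.2 and from 10.9 to 4.42. The list of epithelial transcription and splicing regulators had 20 tested genes, of which 19 fell, none rose and 1 did not pass (median -2.18). RAB25, a GTPase of apical recycling, was at 10.6, 13.0 and 9.08 FPKM in CSCs against 78.0, 78.3 and 69.0 in non-CSCs. It was low in every CSC library and high in every non-CSC library (log2 fold change -2.79, adjusted p 3.21e-05). ST14, the membrane protease matriptase, fell from 52.6 to 8.26 FPKM.

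The sequence CACCTG, or CAGGTG on the other strand, is the E-box bound by ZEB and SNAIL proteins, so promoters of fallen genes are shown with it. This motif was chosen after the results were seen, and a match is a description only, not evidence of binding. RefSeq promoters (GRCh38.p14, 250 bases before to 50 after each start) were searched, and 231 of 583 promoters of the lower genes held it (39.6%), against 33 of 267 for the higher genes (12.4%), 2421 of 13052 for all tested genes (18.5%) and 7231 of all 35116 in the table (20.6%). Another E-box, CAGCTG, which reads the same on both strands, was in 23.2%, 16.5%, 17.3% and 17.9%. Only 402 of 615 lower genes (65.4%) and 185 of 257 higher genes (72.0%) had an entry, under the 80% needed, so comparing shares between sets is void as a check and stands as description. Each sequence ends at the base before the start, in the gene's own direction, with capitals marking CACCTG or CAGGTG. RAB25 lies at chr1:156061010-156061159 (plus strand), with the motif 41 bases before the start, CLDN7 at chr17:7262479-7262678 (minus strand) with it at 174, 135, 20 and 9, and FUT3, a fucosyltransferase, at chr19:5851450-5851599 (minus strand) at 77 and 67. ITGB6, an epithelial integrin chain, lies at chr2:160200273-160200422 (minus strand) with the motif at 70, LAMA3, a laminin-332 chain, at chr18:23872870-23873019 (plus strand) at 73, and FA2H, the fatty acid 2-hydroxylase, at chr16:74774821-74775020 (minus strand) at 174, 141 and 50.
RAB25: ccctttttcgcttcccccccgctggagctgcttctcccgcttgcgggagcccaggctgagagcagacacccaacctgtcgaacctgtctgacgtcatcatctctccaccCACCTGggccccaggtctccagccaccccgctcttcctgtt
CLDN7: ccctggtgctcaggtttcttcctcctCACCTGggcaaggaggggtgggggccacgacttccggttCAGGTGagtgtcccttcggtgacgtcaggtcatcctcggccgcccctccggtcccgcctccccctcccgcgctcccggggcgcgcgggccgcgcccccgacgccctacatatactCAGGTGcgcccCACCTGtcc
FUT3: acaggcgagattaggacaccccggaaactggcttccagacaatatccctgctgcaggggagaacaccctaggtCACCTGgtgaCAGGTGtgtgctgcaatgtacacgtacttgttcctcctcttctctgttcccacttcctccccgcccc
ITGB6: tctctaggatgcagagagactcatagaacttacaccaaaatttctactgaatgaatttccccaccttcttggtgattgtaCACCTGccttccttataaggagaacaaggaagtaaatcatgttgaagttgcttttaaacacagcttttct
LAMA3: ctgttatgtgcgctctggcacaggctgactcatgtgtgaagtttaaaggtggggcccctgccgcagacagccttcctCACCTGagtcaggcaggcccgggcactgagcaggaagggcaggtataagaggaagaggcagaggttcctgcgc
FA2H: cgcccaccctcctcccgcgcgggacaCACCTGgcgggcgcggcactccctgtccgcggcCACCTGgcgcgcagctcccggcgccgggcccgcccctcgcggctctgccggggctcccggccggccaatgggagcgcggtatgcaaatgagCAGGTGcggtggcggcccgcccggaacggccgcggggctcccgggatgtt

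The genes whose promoters are shown were picked among those that fell. FUT3 was at 2.02, 1.99 and 2.00 FPKM in CSCs against 18.1, 17.6 and 16.1 in non-CSCs. The CSC libraries held nearly equal values, all far under the non-CSC values (log2 fold change -3.05, adjusted p 1.26e-05). ITGB6 fell from 8.84 ± 0.209 to 1.97 ± 0.1002 FPKM, LAMA3 from 30.8 ± 0.966 to 8.35 ± 0.488, and FA2H from 22.3 ± 1.40 to 10.2 ± 1.20.

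Keratins of the luminal and the basal type both fell. KRT8 and KRT18, the pair of simple epithelia, went from 568 to 216 and from 611 to 212 FPKM, and KRT7 from 858 to 433. KRT19 was low and fell from 4.70 to 0.883. Of 14 tested luminal genes, 13 fell, none rose and 1 did not pass (median -1.56). GATA3, a luminal transcription factor, was at 5.87, 4.71 and 3.81 FPKM in CSCs against 15.5, 15.9 and 15.1 in non-CSCs. Its groups did not overlap, and ESR1, the estrogen receptor, was low throughout and fell from 1.66 to 0.393 FPKM. AGR2, a disulfide isomerase of secretory cells, fell from 1.96 to 0.214, and FOLR1, the folate receptor, from 1.96 to 0.164.

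Among 23 tested basal and myoepithelial markers, 16 fell, 2 rose and 5 did not pass (median -0.81). KRT15, a keratin of basal progenitors, was at 11.03, 11.9 and 11.9 FPKM in CSCs against 105, 94.3 and 89.5 in non-CSCs. The CSC libraries were all low and the non-CSC libraries all high (log2 fold change -3.04, adjusted p 1.26e-05). KRT5 fell from 32.4 to 12.9 FPKM (-1.33), KRT17 from 214 to 91.6 (-1.22) and KRT14 from 170.2 to 109 (-0.64), so the basal keratin pair KRT5 and KRT14 fell less than KRT15. KRT6A and KRT6B fell from 15.02 to 2.76 and from 6.92 to 1.20; these genes are near-identical, and reads may be shared between them. TP63, the basal lineage factor, was at 3.30, 3.34 and 3.01 FPKM in CSCs against 5.94, 5.58 and 5.61 in non-CSCs, with no overlap and adjusted p 2.68e-04. Not all basal genes fell: MYLK, the myosin light chain kinase, rose from 1.35 to 4.40 FPKM, and CAV1, a caveolar coat protein, from 76.0 to 99.0. EGFR was at 10.8, 12.1 and 13.0 FPKM in CSCs against 8.68, 9.07 and 12.2 in non-CSCs. Its groups overlapped (adjusted p 0.2005); without non-CSC replicate 3 it passed at 0.0323.

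Genes of squamous differentiation fell furthest. SPRR1B, a precursor of the cornified envelope, was at 5.69, 5.95 and 4.48 FPKM in CSCs against 89.0, 87.8 and 79.7 in non-CSCs. Every CSC library was low (log2 fold change -3.98, standard error 0.12, adjusted p 1.26e-05). SPRR1A fell from 9.52 to 0.595 and SPRR3 from 4.46 to 0.313 FPKM; SPRR genes are paralogs in 1 cluster, so their separate values are uncertain. Of 24 tested squamous genes, 21 fell, 1 rose and 2 did not pass, with a median of -2.70, the lowest of all lists. Kallikreins, the serine proteases that shed the outer skin layer, took part: KLK5 was at 64.8, 67.8 and 64.5 FPKM in CSCs against 575, 494 and 460.2 in non-CSCs. KLK7 fell from 28.4 ± 2.21 to 2.55 ± 0.615 FPKM and KLK8 from 31.2 ± 5.55 to 2.68 ± 0.196, and neither group overlapped. KRT13, a keratin of stratified mucosa, fell from 3.76 to 0.293, and the keratin 16 pseudogene KRT16P2, hard to tell from its parent by sequence, from 3.62 to 0.240. SBSN, suprabasin, was the member that rose, from 3.26 to 5.43.

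Products of mucosal defence fell beside them. S100A7, psoriasin, was at 2.67, 3.58 and 2.63 FPKM in CSCs against 70.4, 61.2 and 53.8 in non-CSCs. No CSC library came near the non-CSC values (log2 fold change -4.34, adjusted p 1.26e-05). The calprotectin pair fell together, S100A8 from 156 to 26.7 and S100A9 from 432 to 70.4 FPKM. LCN2, an iron-siderophore binding protein, was at 272, 269 and 268 FPKM in CSCs against 1443, 1336 and 1187 in non-CSCs. Antiproteases were abundant in both fractions and fell less: PI3 (elafin) from 1770.0 to 667 and SLPI from 612 to 230.2 FPKM. Of 20 tested secretory genes, 19 fell, none rose and 1 did not pass (median -2.34). TMPRSS4, a membrane serine protease, fell from 2.13 to 0.198 FPKM.

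**Figure D2:**
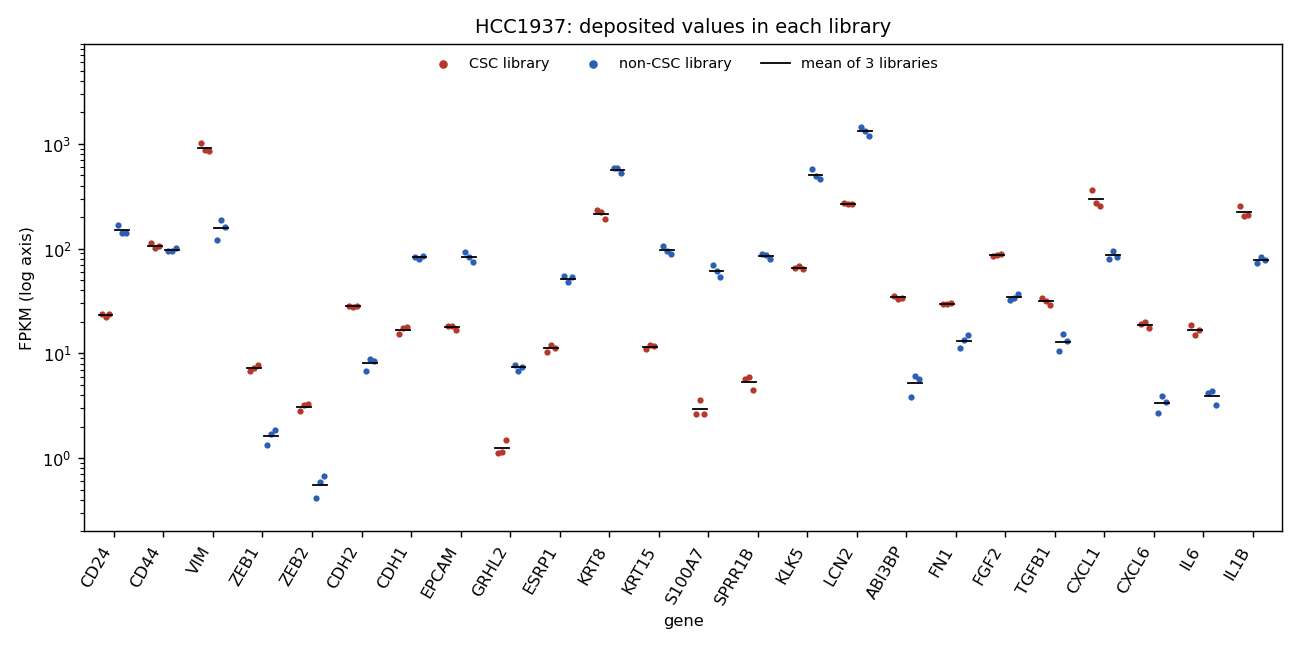
FPKM of 24 named genes in each of the 6 libraries on a log scale. CSC and non-CSC replicates are drawn as separate points.

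Matrix genes rose more often than they fell. COL4A1 and COL4A2, the collagen IV chains, went from 2.88 to 9.38 and from 8.64 to 24.2 FPKM. NID1, which links laminin to collagen IV, rose from 0.485 ± 0.113 to 2.50 ± 0.134. FBN1, the microfibril protein fibrillin-1, was at 38.7, 43.1 and 44.1 FPKM in CSCs against 9.12, 12.2 and 13.2 in non-CSCs. The groups were clearly apart (log2 fold change 1.87, adjusted p 1.62e-04), as they were for FN1, fibronectin, at 13.2 in non-CSCs and 29.7 in CSCs. ABI3BP, a matrix protein that binds ABI3, was at 35.4, 33.2 and 34.1 FPKM in CSCs against 3.86, 6.08 and 5.66 in non-CSCs. Of 21 tested matricellular and adhesive proteins, 14 rose, 5 fell and 2 did not pass (median 1.01); TNC, tenascin C, rose from 17.9 to 45.0, and TGFBI, an integrin-binding protein, from 58.5 to 145 FPKM. HAS3, a hyaluronan synthase, fell from 33.3 to 10.6; hyaluronan is the ligand of CD44. For 26 collagen and collagen processing genes, 12 rose, 3 fell and 11 did not pass (median 0.20, range 0.20 to 0.33). LOX, which crosslinks collagen, rose from 0.560 to 2.60 and ADAMTS2, which trims procollagen, from 0.429 to 2.40, while COL12A1 and COL18A1 fell from 5.79 to 3.26 and from 22.9 to 17.1. The fibroblast list above, summing to 15.7 against 8.20 FPKM with COL1A1 and 4.64 against 1.44 without it, moved with these genes, and its part was not tested.

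Matrix proteases and matrix receptors moved in both directions, the proteases mostly up. Of 18 matrix proteases and inhibitors tested, 10 rose, 3 fell and 5 did not pass (median 0.81). ADAM12, a membrane metalloprotease, was at 4.83, 4.20 and 3.86 FPKM in CSCs against 0.629, 0.914 and 1.06 in non-CSCs. All CSC values were higher than all non-CSC values, as for the collagenase MMP1 (0.679 to 2.64) and the gelatinase MMP2 (1.13 to 3.40). ADAMTSL1, a secreted relative of the ADAMTS proteases with no protease domain, rose from 0.495 to 2.99 FPKM. PLAU, the urokinase, fell from 55.3 to 34.5, and TIMP3, a metalloprotease inhibitor, from 20.5 to 8.30. Among 20 integrin and laminin genes, 9 rose, 7 fell and 4 did not pass (median 0.09, range 0.05 to 0.22). Fibronectin and vitronectin receptor chains rose, ITGA5 from 47.7 to 97.8 and ITGB3 from 0.633 to 2.75, whereas ITGB4, the hemidesmosome chain that binds laminin-332, was at 19.8, 20.5 and 19.8 FPKM in CSCs against 51.6, 53.4 and 55.3 in non-CSCs. Its CSC libraries were all low, in step with LAMA3 above. The laminin chains LAMA4 and LAMB1 rose from 4.48 to 9.01 and from 17.7 to 31.8 FPKM.

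TGFB1 and both of its receptors rose within a list that moved both ways. TGFB1 was at 33.6, 31.8 and 29.0 FPKM in CSCs against 10.5, 15.2 and 13.2 in non-CSCs. The CSC values were all higher than the non-CSC values (log2 fold change 1.29, adjusted p 6.89e-04). TGFBR1 rose from 7.47 to 12.1 FPKM, TGFBR2 from 8.05 to 18.5, and SMAD7, an inhibitory SMAD, from 1.77 to 2.85. The activin chain INHBA fell from 7.93 to 4.50, its antagonist FST from 1.81 to 0.461, and the decoy receptor BAMBI from 42.3 to 29.2. In all, 7 of 20 tested TGF-beta and activin genes rose, 6 fell and 7 did not pass (median 0.12, range 0.10 to 0.24). Of 12 BMP genes, 5 rose, 3 fell and 4 did not pass (median -0.01, from -0.08 without CSC replicate 3 to 0.12 under TPM). The BMP targets ID2 and ID3 rose from 9.01 to 17.9 and from 53.7 to 96.4, though BMP4 itself fell from 3.64 to 1.35 FPKM. Another ID gene was among those that fell. CHRDL1, a BMP antagonist, was at 5.002, 5.97 and 5.68 FPKM in CSCs against 0.505, 1.11 and 1.09 in non-CSCs. HTRA1, a secreted serine protease, rose from 33.5 to 105, and GDF15, a stress-induced relative of the family, fell from 92.8 to 41.6.

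EGF family ligands split. EREG, epiregulin, was at 61.4, 63.4 and 67.1 FPKM in CSCs against 19.3, 21.7 and 24.4 in non-CSCs. AREG, amphiregulin, its neighbour on chromosome 4, was at 11.6, 12.9 and 10.9 FPKM in CSCs against 33.8, 35.8 and 31.9 in non-CSCs. So every CSC library was high in EREG and low in AREG (log2 fold change 1.55 and -1.52). EPGN, epigen, rose from 3.89 to 12.2 FPKM, while HBEGF fell from 64.1 to 39.7 and TGFA from 12.4 to 8.81. The receptors ERBB2 and ERBB3 fell from 17.5 to 10.1 and from 11.5 to 5.01, and LRIG1, which restrains ERBB receptors, rose from 12.5 to 26.1. Of 11 tested members 3 rose, 6 fell and 2 did not pass (median -0.49).

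Among growth factors of the mesenchymal receptor list, FGF2 was at 85.3, 86.6 and 89.5 FPKM in CSCs against 32.7, 34.2 and 36.8 in non-CSCs. Its groups were far apart (log2 fold change 1.33, adjusted p 3.84e-05), and FGF1 and the receptor FGFR1 went up with it, from 0.775 to 2.53 and from 6.06 to 13.2 FPKM. FGFBP1, a secreted carrier of FGFs, fell from 85.9 to 47.3. The semaphorin and VEGF co-receptors diverged, with NRP1 rising from 25.8 to 66.9 and NRP2 falling from 5.65 to 1.65. Among 26 mesenchymal receptor kinases and ligands, 12 rose, 7 fell and 7 did not pass (median 0.21, range 0.15 to 0.34). Of 13 MAPK feedback genes, 6 rose, 3 fell and 4 did not pass (median 0.12, range 0.10 to 0.25): SPRY2, a brake on receptor kinases, went from 10.4 to 20.4 and the ERK phosphatase DUSP6 from 24.3 to 41.4, but DUSP5, a nuclear ERK phosphatase, fell from 36.7 to 21.7. Hippo pathway genes were mixed, with 7 up, 5 down and 9 not passing of 21 (median 0.06, range 0.03 to 0.18). The YAP targets CYR61 and CTGF rose from 174 to 352 and from 39.1 to 72.2 FPKM, and SAV1, a scaffold of the pathway's kinases, fell from 33.4 to 15.4. Other members of this list were among the 5 that fell.

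Wnt ligands moved in both directions. WNT5A was at 8.28, 8.48 and 8.68 FPKM in CSCs against 2.92, 2.90 and 3.24 in non-CSCs. WNT5B rose from 3.45 to 11.2 FPKM and the receptor FZD8 from 9.38 to 27.7; WNT5A and WNT5B act mainly without beta-catenin. WNT10A was at 2.64, 2.94 and 2.02 FPKM in CSCs against 13.2, 13.4 and 11.7 in non-CSCs. It was low in all CSC libraries, as were WNT7A (18.0 to 6.53) and WNT9A (3.85 to 1.44). Of 21 Wnt genes, 9 rose, 8 fell and 4 did not pass (median -0.02, from -0.09 without CSC replicate 1 to 0.11 under TPM). Notch genes went down more often, 8 of 12, with 1 up and 3 not passing (median -0.57). NOTCH2, a receptor, rose from 7.10 to 14.4, while the targets HES1 and NRARP fell from 252 to 171 and from 10.03 to 4.68, and HES2 from 3.86 to 0.417 FPKM.

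Among self-renewal factors there was no common direction: of 11 tested, 2 rose, 3 fell and 6 did not pass (median -0.15, range -0.17 to -0.02). TBX3 and HMGA2, an architectural chromatin protein, rose from 2.25 to 3.92 and from 3.77 to 6.21 FPKM. SALL4 fell from 3.78 to 2.38. SOX9, a mammary progenitor factor, was at 11.9, 12.1 and 12.5 FPKM in CSCs against 30.5, 28.2 and 29.8 in non-CSCs. Its CSC libraries were all low (log2 fold change -1.27, adjusted p 3.54e-05). Of 6 SOX genes tested, 1 rose, 3 fell and 2 did not pass (median -0.57); SOX4 fell from 12.05 to 6.09 and SOX15 from 15.7 to 3.19, and SOX12 rose from 3.68 to 6.39. Aldehyde dehydrogenase activity is another marker of breast stem cells, and its genes went the other way: ALDH1A3 was at 268, 259.6 and 255 FPKM in CSCs against 368, 374 and 367 in non-CSCs. All CSC values were lower (log2 fold change -0.50, adjusted p 9.89e-04), and 12 of 21 aldehyde dehydrogenase and retinoid genes fell, 1 rose and 8 did not pass (median -0.34, range -0.41 to -0.22). CRABP2, a carrier of retinoic acid, fell from 378 to 68.1 FPKM; CYP26B1, which degrades retinoic acid, rose from 1.24 to 2.52.

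Neutrophil chemokines rose together. CXCL1 was at 360.1, 271 and 257 FPKM in CSCs against 80.1, 94.8 and 83.9 in non-CSCs. CXCL6 was at 19.1, 20.0 and 17.4 FPKM in CSCs against 2.68, 3.95 and 3.47 in non-CSCs. In both, all CSC libraries exceeded all non-CSC libraries (log2 fold change 1.77 and 2.47, standard error 0.14 and 0.14). CXCL2 rose from 30.5 to 63.2 FPKM, CXCL3 from 6.15 to 22.9, CXCL5 from 0.930 to 4.67 and IL8 (CXCL8) from 23.7 to 60.8. CXCL1 to CXCL3, and CXCL5 with CXCL6, are near-identical neighbours, so how reads were split between them is uncertain. Colony stimulating factors CSF3, for granulocytes, and CSF1, for macrophages, rose from 6.65 to 27.1 and from 29.4 to 62.0. Of 9 tested genes 8 rose, none fell and 1 did not pass (median 1.77 against -0.03).

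Promoters of this chemokine family are shown with the kappaB-like sequence GGNNTTTCC (GGAAANNCC on the other strand, N any base), the kind of site that NF-kappaB binds. It was chosen after the results were seen, a match is a description only, and 6.26% of all 35116 promoters hold it (2198), beside 6.89% for all tested genes, 10.1% for the higher and 9.09% for the lower genes. Counted by gene, 6 of 7 chemokine and growth factor genes with a promoter held it (of 9 tested, 8 of which rose), and 12 of 15 NF-kappaB subunit and feedback genes with a promoter (of 17 tested, 1 of which rose). A gene counted if any of its promoters matched, whereas the percentages are shares of promoters, so these are unlike measures. Matches in the near-identical CXCL neighbours named above are not independent. The bases end just before the start (RefSeq, GRCh38.p14), and capitals mark GGNNTTTCC or GGAAANNCC. CXCL1 lies at chr4:73869273-73869392 (plus strand) with matches 78 and 53 bases before the start, CXCL2 at chr4:74099196-74099315 (minus strand) with 77 and 53, and CXCL3 at chr4:74038690-74038809 (minus strand) with 78 and 53. CXCL5 lies at chr4:73998678-73998797 (minus strand) with 90, CXCL6 at chr4:73836558-73836677 (plus strand) with 89, and IL8 at chr4:73740449-73740568 (plus strand) with 91.
CXCL1: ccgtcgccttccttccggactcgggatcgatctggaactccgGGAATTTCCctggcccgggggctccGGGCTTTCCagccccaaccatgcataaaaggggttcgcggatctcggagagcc
CXCL2: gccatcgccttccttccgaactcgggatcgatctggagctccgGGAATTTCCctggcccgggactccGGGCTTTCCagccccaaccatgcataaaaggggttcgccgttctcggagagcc
CXCL3: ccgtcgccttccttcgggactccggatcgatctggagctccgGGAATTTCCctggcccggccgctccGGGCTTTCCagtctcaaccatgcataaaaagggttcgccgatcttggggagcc
CXCL5: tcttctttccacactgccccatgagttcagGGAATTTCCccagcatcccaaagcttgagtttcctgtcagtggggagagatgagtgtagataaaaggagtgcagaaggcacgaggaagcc
CXCL6: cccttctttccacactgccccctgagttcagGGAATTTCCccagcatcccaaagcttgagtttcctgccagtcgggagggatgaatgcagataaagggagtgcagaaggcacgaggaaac
IL8: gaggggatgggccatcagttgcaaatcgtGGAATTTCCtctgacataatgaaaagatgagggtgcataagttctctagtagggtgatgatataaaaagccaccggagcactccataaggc

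NF-kappaB feedback genes did not follow the chemokines. Of 17 tested, 1 rose, 4 fell and 12 did not pass (median -0.18, range -0.22 to -0.05). NFKBIA, the inhibitor that NF-kappaB induces, was at 169.9, 146 and 146 FPKM in CSCs against 199, 196 and 165 in non-CSCs. The groups overlapped (adjusted p 0.0923), though without non-CSC replicate 3 it passed at 0.0434 and in the fit over 15 libraries at 0.0231. TNFAIP3, a deubiquitinase of the same loop, was at 63.4, 63.9 and 64.3 FPKM in CSCs against 69.4, 72.2 and 75.2 in non-CSCs, with adjusted p 0.0763. SOD2, the mitochondrial superoxide dismutase, rose from 92.7 to 141 FPKM, while TNFAIP2 fell from 228 to 118 and the kinase IKBKE from 5.29 to 3.48.

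Other inflammatory cytokines fell more often than they rose. IL6 was at 18.8, 14.9 and 16.7 FPKM in CSCs against 4.18, 4.36 and 3.25 in non-CSCs. IL1B was at 254, 204 and 209 FPKM in CSCs against 73.3, 83.9 and 78.1 in non-CSCs. The CSC libraries were all higher in both cytokines (adjusted p 8.92e-05 and 1.10e-04), and IL24 rose from 0.741 to 3.28 FPKM. IL1RN, the antagonist of IL1B, fell from 2.24 to 0.491, the mucosal chemokine CCL28 from 7.41 to 0.779, CXCL16 from 44.9 to 10.8, and TNFSF10, the death ligand TRAIL, from 18.8 to 7.38. In all 5 of 17 rose, 10 fell and 2 did not pass (median -0.70). The IL6 receptor chains IL6R and IL6ST rose from 1.25 to 2.23 and from 22.9 to 45.3, as did IL7R (3.57 to 7.88), but STAT3 fell from 61.8 to 41.8, IL4R from 25.2 to 13.5 and the shared cytokine receptor chain IL2RG from 2.46 to 0.778. Among 25 JAK-STAT genes 5 rose, 8 fell and 12 did not pass (median -0.10, from -0.21 without CSC replicate 1 to 0.02 under TPM).

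Interferon stimulated genes fell mildly: of 38 tested, 23 fell, none rose and 15 did not pass (median -0.41). MX1, an antiviral GTPase, was at 3.95, 3.44 and 3.05 FPKM in CSCs against 9.03, 8.17 and 7.92 in non-CSCs. No value overlapped (log2 fold change -1.25, adjusted p 2.65e-04). OAS1 and OAS2, sensors of double-stranded RNA, fell from 5.65 to 2.41 and from 3.40 to 1.34 FPKM, and IRF9, a subunit of the interferon-activated factor, from 27.1 to 16.7. IFITM3, the most abundant member, was at 326, 271 and 248 FPKM in CSCs against 358, 366 and 319.9 in non-CSCs, with overlapping groups and adjusted p 0.0893; without CSC replicate 1 it passed at 0.0207 and in the fit over 15 libraries at 0.0353. All 5 tested MHC class II presentation genes fell (median -1.06). CD74, the invariant chain, went from 5.999 to 1.82 and IFI30, a lysosomal thiol reductase, from 61.2 to 29.3. MHC class I genes mostly did not pass, 13 of 17, with 1 up and 3 down (median -0.13, from -0.20 without CSC replicate 1 to 0.13 under quantile scaling).

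Aryl hydrocarbon receptor genes rose. CYP1B1, a monooxygenase that the receptor induces, was at 24.6, 26.0 and 28.2 FPKM in CSCs against 4.18, 5.85 and 5.71 in non-CSCs. The groups were far apart (log2 fold change 2.32, adjusted p 6.42e-05). CYP1A1 rose from 0.466 to 1.73 FPKM, the receptor AHR itself from 7.53 to 13.5 and its repressor AHRR from 0.732 to 1.44. Of 8 tested genes 6 rose, 1 fell and 1 did not pass (median 0.68); the fallen member was the dehydrogenase ALDH3A1, from 6.84 to 3.96. NRF2 targets had no shared direction, with 6 up, 6 down and 14 not passing of 26 (median 0.04, from -0.02 without CSC replicate 1 to 0.17 under TPM), and AKR1C1, an aldo-keto reductase with close paralogs, rose from 20.2 to 60.7 FPKM. Of 21 ABC transporters 6 rose, 4 fell and 11 did not pass (median 0.01, from -0.03 without CSC replicate 1 to 0.13 under TPM): the drug exporter ABCC2 went from 0.935 to 1.88, and ABCC9, a potassium channel subunit, from 1.67 to 7.15.

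Sterol and fatty acid synthesis genes rose more often than they fell. Of 34 tested, 15 rose, 4 fell and 15 did not pass (median 0.24, range 0.23 to 0.36). INSIG1, which holds SREBP in the endoplasmic reticulum, was at 47.6, 40.7 and 43.4 FPKM in CSCs against 21.9, 22.6 and 21.0 in non-CSCs. The CSC libraries were all higher (adjusted p 1.77e-04). SQLE, squalene epoxidase, rose from 35.3 to 57.7 FPKM, and the desaturases FADS1 and FADS2 from 11.2 to 20.8 and from 7.46 to 13.4. The regulator SREBF1 fell from 45.4 to 33.4. ABCA1, the cholesterol exporter, rose from 2.60 to 6.61, and APOE fell from 5.45 to 2.81; of 9 efflux and LXR genes 2 rose, 3 fell and 4 did not pass (median -0.09, from -0.15 without CSC replicate 2 to 0.03 under TPM).

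Eicosanoid genes fell more often than they rose. PTGS2, the inducible cyclooxygenase, was at 19.9, 19.9 and 20.7 FPKM in CSCs against 51.3, 44.4 and 50.2 in non-CSCs. Its groups did not overlap (log2 fold change -1.26, adjusted p 7.08e-05). PTGS1 fell from 1.97 to 0.372 FPKM and the synthase PTGES from 124 to 59.6, while PTGER2, a receptor for prostaglandin E2, rose from 1.68 to 3.68. The lipoxygenase ALOX15B fell from 2.39 to 0.591 and CYP4F3, which hydroxylates leukotriene B4, from 1.88 to 0.499. Of 16 eicosanoid genes 2 rose, 9 fell and 5 did not pass (median -0.32, range -0.37 to -0.19). Sphingolipid genes were balanced, 6 up, 5 down and 14 not passing of 25 (median 0.05, from -0.07 without CSC replicate 1 to 0.18 under TPM), and the paralogs that dephosphorylate sphingosine 1-phosphate moved apart, SGPP1 from 2.15 to 3.65 and SGPP2 from 3.45 to 0.980.

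Ion channels and carriers of absorptive epithelia fell, 18 of 20, with 1 up and 1 not passing (median -0.76). SCNN1A, the alpha chain of the epithelial sodium channel, was at 8.10, 8.30 and 8.59 FPKM in CSCs against 56.1, 50.8 and 53.6 in non-CSCs. SCNN1B, its beta chain, fell from 3.79 to 0.364 FPKM, and AQP3, a water and glycerol channel, from 15.5 to 3.86. Every CSC library was low in all 3 channel genes. SLC6A14, an amino acid carrier, fell from 4.01 to 0.376 and SLC5A1, the sodium-glucose carrier, from 2.52 to 0.202. GABA receptor chains moved apart, GABRP from 2.63 to 0.111 and GABRA3 from 0.270 to 2.39 FPKM. Of 21 calcium handling genes 4 rose, 9 fell and 8 did not pass (median -0.23, range -0.29 to -0.11); CALB2, calretinin, fell from 14.5 to 2.48 and S100A14 from 152 to 26.4. Glycan enzymes besides FUT3 fell too, B4GALNT3 from 2.72 to 0.313 and GALNT3, which starts mucin-type glycans, from 21.6 to 3.60, though the whole list had 8 down, 2 up and 7 not passing of 17 (median -0.26, range -0.42 to -0.13).

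Growth machinery was nearly flat. Of 43 replication genes 2 rose, none fell and 41 did not pass (median 0.02, from -0.03 without CSC replicate 1 to 0.15 under TPM), and of 41 mitosis genes 2 rose, none fell and 39 did not pass (median 0.05, range 0.02 to 0.18). RRM2, a ribonucleotide reductase chain, was at 28.7, 23.2 and 25.1 FPKM in CSCs against 19.6, 20.7 and 19.7 in non-CSCs, and RFC3, a clamp loader subunit, at 23.3, 21.9 and 23.1 FPKM in CSCs against 19.1, 19.3 and 18.4 in non-CSCs. Both groups stood apart narrowly (adjusted p 0.0276 and 0.0187), and both calls were lost without CSC replicate 3 (0.0614 and 0.0577), non-CSC replicate 1 (0.0878 and 0.0583), 2 (0.0649 and 0.0553) or 3 (0.0737 and 0.0567). RRM2 also missed the threshold with no filter on low values (0.0633) and with replicate blocks (0.0563). FOXM1, a mitotic transcription factor, rose from 25.9 to 36.8 FPKM. Of 74 ribosomal protein genes none rose, 1 fell and 73 did not pass (median -0.05, from -0.16 without CSC replicate 1 to 0.07 under TPM). The fallen member, RPL22, was at 37.8, 33.4 and 30.2 FPKM in CSCs against 46.1, 41.1 and 43.9 in non-CSCs; RPL genes have many processed copies, and the call (adjusted p 0.0296) was lost under TPM (0.0803), with a 0.1 FPKM filter (0.0507), with none (0.0680), and without CSC replicate 2 (0.0844) or 3 (0.0743) or non-CSC replicate 1 (0.0989), 2 (0.0526) or 3 (0.0748). Of 49 respiratory chain genes 3 fell, none rose and 46 did not pass (median -0.09, from -0.19 without CSC replicate 1 to 0.03 under TPM), COX6A1 among them, from 194 to 120.1.

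Glycolysis and hypoxia genes had no shared direction, with 8 up, 7 down and 17 not passing of 32 (median -0.03, from -0.08 without CSC replicate 1 to 0.09 under TPM). CA12, a carbonic anhydrase, rose from 2.17 to 6.20 FPKM and the glucose carrier SLC2A1 fell from 43.5 to 28.9. Of 15 G1 regulators 3 rose, 4 fell and 8 did not pass (median 0.11, range 0.04 to 0.24). Among 33 homologous recombination and Fanconi genes 5 rose, 2 fell and 26 did not pass (median 0.07, range 0.03 to 0.19); ATM, the double-strand break kinase, rose from 2.74 to 4.45.

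p53 target genes leaned down, 13 of 24, with 2 up and 9 not passing (median -0.30, range -0.34 to -0.18). CDKN1A, the p21 inhibitor, was at 37.6, 33.7 and 29.4 FPKM in CSCs against 48.7, 46.3 and 47.1 in non-CSCs. The groups did not overlap, and BTG2, an antiproliferative factor, fell from 10.6 to 4.60, TP53I3 from 4.03 to 1.92 and PERP, also a desmosome protein, from 125 to 39.3 FPKM. Of 24 apoptosis regulators 2 rose, 10 fell and 12 did not pass (median -0.22, range -0.24 to -0.10), with BIK, a death-promoting BH3 protein, going from 15.95 to 4.92.

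In the unfolded protein response list 13 of 27 genes rose, 5 fell and 9 did not pass (median 0.21, range 0.17 to 0.34). HSPA5 (BiP), a chaperone of the endoplasmic reticulum, was at 838, 864 and 866 FPKM in CSCs against 683, 668 and 616 in non-CSCs. All CSC values were higher, by a small fold (log2 0.38, adjusted p 0.00570), and CANX, calnexin, rose from 175 to 259.7 FPKM. CREB3L1, a factor for collagen secretion, rose from 1.12 to 5.49, but the stress genes ATF3 and CHAC1 fell from 21.0 to 15.1 and from 25.6 to 18.3. Immediate early genes, which cell dissociation can induce, split: 4 of 21 rose, 8 fell and 9 did not pass (median -0.22, range -0.27 to -0.09), with FOS falling from 70.7 to 52.3, EGR1 from 134 to 99.7, and JUN rising from 139.9 to 207. Of 14 heat shock genes 3 rose, 2 fell and 9 did not pass (median 0.11, range 0.01 to 0.24).

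Cytoskeletal genes had no common direction. Of 26 actin and contractility genes 6 rose, 6 fell and 14 did not pass (median 0.08, from -0.04 without CSC replicate 1 to 0.21 under TPM). FLNC, a crosslinker of actin, rose from 2.34 to 4.93 FPKM and TNNC1, a troponin, fell from 4.15 to 0.963.

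**Figure D3:**
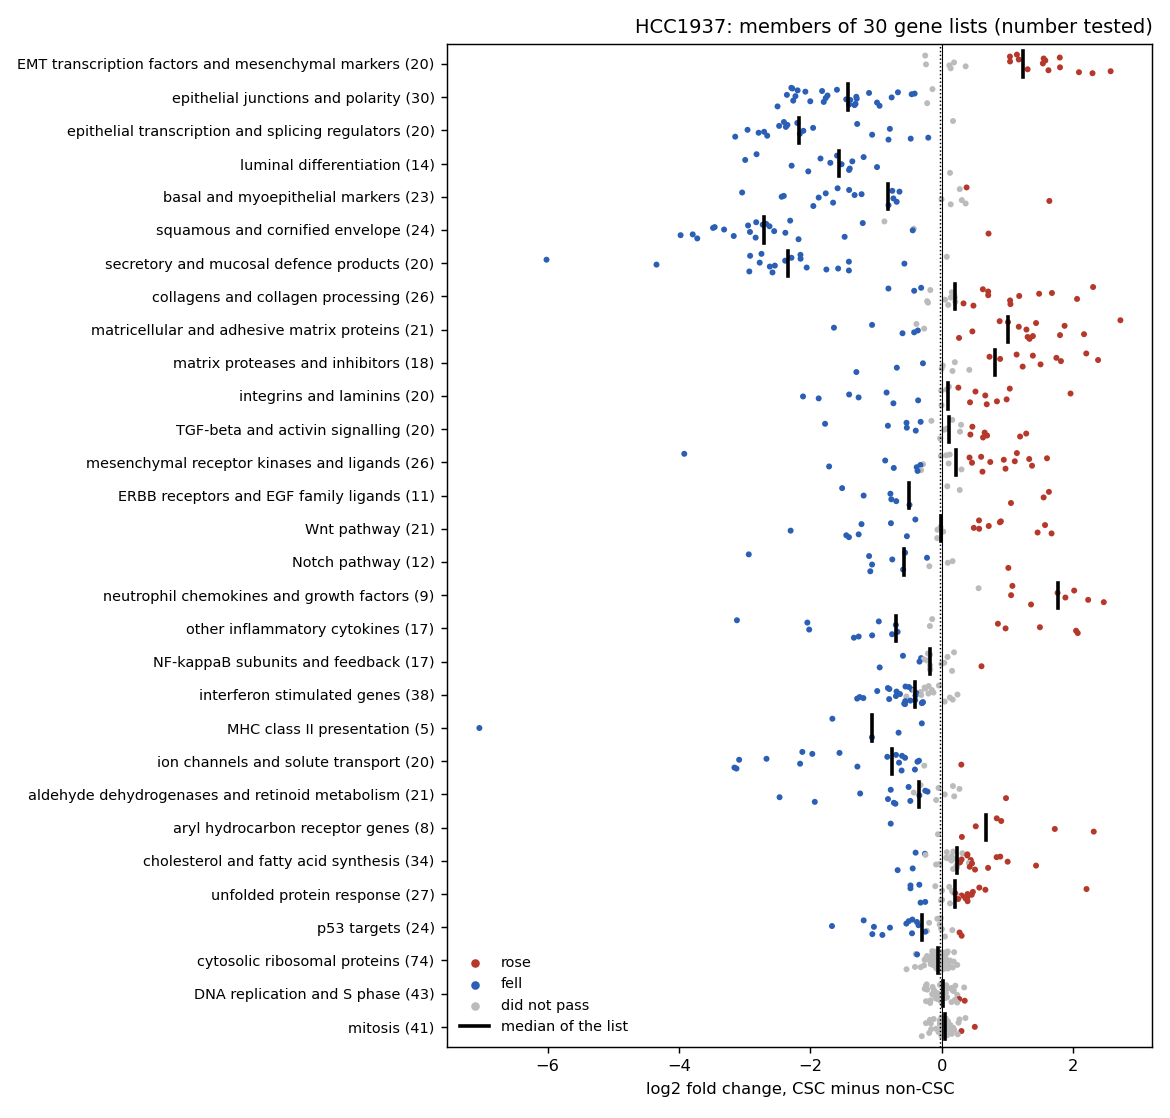
Median log2 fold change, CSC minus non-CSC, of 30 gene lists with the values of their members. The median over all 11773 genes is -0.03.

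Large rises outside the lists were of several kinds. SRGN, the proteoglycan serglycin, was at 35.8, 33.9 and 34.7 FPKM in CSCs against 5.33, 6.61 and 6.31 in non-CSCs. ESM1, an endothelial-type secreted proteoglycan, was at 65.0, 52.9 and 55.4 FPKM in CSCs against 7.47, 10.5 and 8.82 in non-CSCs. Both stood far over the non-CSC libraries (log2 fold change 2.50 and 2.69). APLN, the peptide apelin, rose from 0.343 to 2.57 FPKM, PID1 from 0.281 to 2.01 and GNG11, a G protein gamma chain, from 0.282 to 2.25; GNG11 was listed at 0 in non-CSC replicate 1 and lost its call with a pseudocount of 0.01 (log2 fold change 4.20, adjusted p 0.0696). QSOX1, a sulfhydryl oxidase of the secretory path, was at 717, 640.4 and 632 FPKM in CSCs against 208, 260.2 and 245 in non-CSCs, among the most abundant genes that rose.

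Several large values are uncertain. SCARNA10, a small nuclear RNA of a length that FPKM handles poorly, was at 1.55, 3.93 and 6.01 FPKM in CSCs against 0.586, 0 and 0 in non-CSCs. HLA-DQB1 was at 0, 0 and 3.08 FPKM in CSCs against 62.9, 52.7 and 21.7 in non-CSCs, and LOC100131138 at 0, 0 and 0.972 FPKM in CSCs against 7.03, 7.96 and 3.04 in non-CSCs. MUC20, a membrane mucin, fell from 16.2 to 0.178, DDR1, a collagen receptor kinase, from 3.15 to 0.125, and TMC4 from 294 to 17.0 FPKM; like HLA genes these lie in regions with duplicated or alternate sequences in the genome build, where reads can be lost or split. EPS8L1, in such a region too, was at 2824, 2271 and 2236 FPKM in CSCs against 12513, 12712 and 9945 in non-CSCs, or 0.818%, 0.727% and 0.730% of the library sum against 3.53%, 3.47% and 3.01%. RNR1 and RNR2, the mitochondrial ribosomal RNAs, together made 1.10%, 1.43% and 1.48% against 2.64%, 2.36% and 2.39%, and each fell (log2 fold change -1.02 and -1.01). Another 31 genes stood 3 or more apart on the log2 scale without a call, all of them listed at 0 in at least 1 library, and 5 called genes were also listed at 0 in at least 1.

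The same sort in the other line, SUM149PT, was used to ask which HCC1937 differences are particular to it, by an interaction of fraction and line over 12 libraries. The log2 fold change differed by at least 1 with adjusted p of at most 0.05 in 3027 of 11773 genes (25.7%), 1813 more positive and 1214 more negative in HCC1937, and in 531 of 872 called genes. Of 257 genes higher in HCC1937 CSCs, 169 had the same sign in SUM149PT, 124 of them with no called difference, and 88 the opposite sign. Of 615 lower genes, 543 had the same sign, 216 of them with no called difference, and 72 did not. Genes were filtered on HCC1937 alone, and 1017 of 11773 had a mean under 1 FPKM in SUM149PT, where a fall can hardly show. Among genes at or above 1 FPKM in both lines, 204 were higher (139 with the same sign, 102 of them with no called difference, and 65 opposite) and 476 lower (419, 148 and 57); this filter was chosen after seeing the data, and a fit limited to it called 2647 differences. The sort marker CD24 itself fell less here, -2.67 against -4.15 in SUM149PT (difference 1.48, interaction adjusted p 3.65e-07). Whether other smaller falls in HCC1937 go with this weaker separation was not tested. The junction genes had a median of -1.43 here and -3.55 in SUM149PT, with a called difference for 20 of 30: CDH1 had -2.29 here and -4.52 there (difference 2.23, standard error 0.11, adjusted p 3.56e-08). KRT15 fell more in HCC1937, -3.04 against -0.78 (difference -2.25, adjusted p 2.90e-08), with SUM149PT means of 2.39 FPKM in CSCs and 4.18 in non-CSCs. KRT14 did not differ between the lines by the test (-0.64 against -0.59, difference -0.06, adjusted p 0.835), but its SUM149PT means were only 0.822 and 1.28 FPKM, and 4 other basal keratins fell less in HCC1937: KRT5 -1.33 against -4.62, KRT17 -1.22 against -3.02, KRT6A -2.40 against -4.58 and KRT6B -2.44 against -4.80. Squamous genes such as SPRR3 (0.0136 and 0.0376 FPKM) and KLK7 (0.0102 and 0.0534) were near 0 in both SUM149PT fractions, so their difference between lines says nothing about the fractions there. TP63 fell in HCC1937 while its log2 fold change in SUM149PT was 2.24 (difference -3.05, adjusted p 2.16e-08). VIM, at 2.57 and 3.11, did not reach the size limit (difference -0.53), nor did ZEB2 (0.32), SRGN (-0.17) or FUT3 (0.25).

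Opposite directions of at least 1 in both lines, with a called difference, were found for 48 genes higher and 19 genes lower in HCC1937 CSCs, and 18 of these are named here. With the filter on both lines 35 and 16 are left. CYP1B1 had 2.32 in HCC1937 and -4.16 in SUM149PT (difference 6.48, standard error 0.19, adjusted p 1.24e-09), and CYP1A1 1.72 and -3.41. INSIG1 had a difference of 3.84, with -2.84 in SUM149PT. IL24 had 2.05 and -4.02 (difference 6.06), PTGER2 1.09 and -4.33 (5.42), and TWIST1 1.63 and -1.02 (2.64). In the other direction, TIMP3 had -1.30 and 1.97 (difference -3.26), GDF15 -1.16 and 2.48 (-3.65) and OAS2 -1.29 and 1.35 (-2.64).

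**Figure D4:**
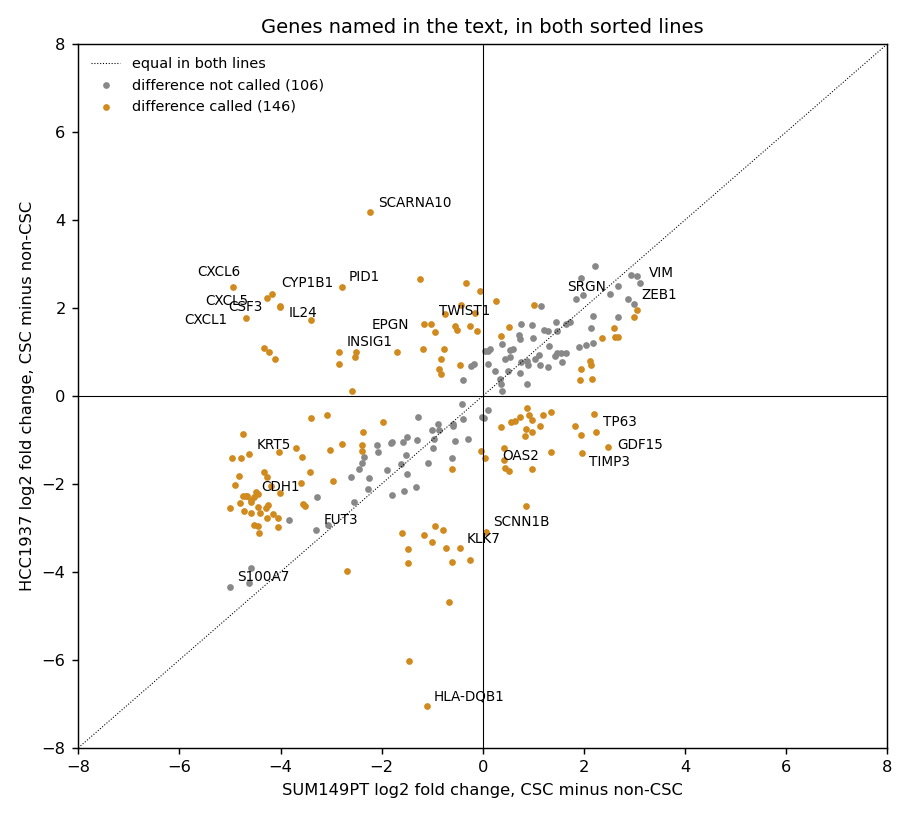
Log2 fold change, CSC minus non-CSC, in HCC1937 against SUM149PT for 252 of the genes named in the text. The difference between lines was called for 146 of them and not for 106.

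Genes called higher and lower lay on every chromosome tested, in unequal shares. The share called lower ran from 2.09% on the X chromosome to 7.82% on chromosome 1 (94 of 1202 genes), beside 5.22% over all genes. The share called higher ran from 0.667% on chromosome 18 to 4.49% on chromosome 4 (18 of 401), beside 2.18%. On chromosomes 4, 13 and X more genes were called higher than lower. Medians by chromosome ran from -0.09 on chromosome 16 to 0.04 on chromosome 5, over 11414 of 11773 genes that could be placed (97.0%).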

How the data were processed

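Values are the deposited FPKM table of the authors, used as listed; the submitters' processing notes name Bowtie2 and GRCh38, and the quantification tool and annotation are not given in the sources used here. Libraries were not rescaled. Fits used log2(FPKM+0.1) with limma 3.58.1 (lmFit, eBayes) in R 4.3.3, and Benjamini-Hochberg adjustment over 11773 genes. The difference between lines is the interaction of fraction and line over 12 libraries. Members and lists were chosen with earlier results of these data known.

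Genes named by rule are the 12 largest changes per direction, up to 3 per list and direction over 59 lists, genes set by name and the most abundant per list. Of 312 such genes 191 are named; the others were left out after their values were seen, many because their call changed with 1 library, and some result is not reported here. KCNMA1 lay under 1 FPKM. Chosen after their values were seen were CDH2, SPARC, TWIST1, SNAI1, SNAI2, CLDN4, GRHL2, ESRP1, ESRP2, ST14, KRT8, KRT18, GATA3, ESR1, KRT5, KRT14, KRT17, TP63, EGFR, KLK5, KLK7, S100A8, S100A9, LCN2, COL4A2, FN1, CXCL2, CXCL3, IL8, NFKBIA, TNFAIP3, HSPA5, EPS8L1, QSOX1, RNR1, RNR2, FSTL1, TGFBI, CDH3, SLPI, ELF3, PROCR, KRT13, MMP2, LAMB1, SMAD7, HBEGF, TGFA, FGFR1, CTGF, CSF1, PTGS2, TNFSF10, IRF9, AHR, FADS2, SQLE, SCNN1A, AQP3, EGR1 and FOS.

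Alternatives covered the pseudocount, the filter, the scaling, the eBayes setting, thresholds, the libraries fitted and a replicate block; a filter on both lines was added after seeing the data.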

Additional observations from a re-analysis of the deposited data

Results flagged for a closer look

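Named genes that moved by at least 1 on the log2 scale in opposite directions in the 2 lines are given here as HCC1937 minus SUM149PT log2 fold change. Among chemokines and cytokines the difference was 7.40 for CXCL6, 6.50 for CXCL5, 6.46 for CXCL1, 6.06 for IL24 and 6.02 for CSF3, all higher in CSCs of HCC1937 and lower in those of SUM149PT. Other members that rose in HCC1937 did not reverse by this size. CXCL2, IL8 and IL6 had positive log2 fold changes in SUM149PT too (0.59, 0.35 and 1.02). CXCL3, CSF1 and IL1B had -0.16, -0.77 and -0.51 there. For CXCL6 the HCC1937 means were 18.9 FPKM (CSC) and 3.36 (non-CSC), and the SUM149PT means 0.681 and 23.1.

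The monooxygenases CYP1B1 and CYP1A1 differed by 6.48 and 5.13, and the sterol regulator INSIG1 by 3.84. CYP1B1 averaged 26.3 and 5.25 FPKM in HCC1937, and 7.03 and 127 in SUM149PT. SCARNA10 differed by 6.40, but with a standard error of 1.40 and a level called uncertain above. The prostaglandin receptor PTGER2 differed by 5.42 and PID1 by 5.28. TWIST1 came to 2.64. APLN came to 3.90, EPGN to 2.79 and FLNC to 2.25, but their SUM149PT means lay near the floor in both fractions, at 0.117 and 0.418 FPKM for APLN, 0.0571 and 0.243 for EPGN, and 0.113 and 0.383 for FLNC, so these 3 passed the filter only through HCC1937.

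On the negative side were OAS2 at -2.64, TIMP3 at -3.26 and GDF15 at -3.65, each lower in CSCs of HCC1937 and higher in those of SUM149PT. The cause of these differences was not tested.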

How the results depend on the processing

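The count of genes higher in CSCs, 257, was 157 with a pseudocount of 1, which shrinks folds of low genes. It was 422 with a filter of 0.1 FPKM, 422 with no filter and 113 at 5 FPKM, since more or fewer low genes enter. At adjusted p of at most 0.0001 it was 77, and with no fold limit 1554. Leaving out 1 library gave 231 to 274. The count of genes lower, 615, was 935, 931 and 307 under those filters, 265 at 0.0001, 2168 with no fold limit, and 588 to 641 without 1 library. The count that differs between lines, 3027, was 5022 with no filter, 1661 at 5 FPKM, 7892 with no fold limit, 2647 with at least 1 FPKM in each line (a filter chosen after seeing the data), and 2989 to 3079 without 1 library. List members that passed numbered 598, and 511 to 596 without 1 library. The chromosome median farthest from 0 was -0.09; it was 0.17 under TPM, 0.11 under upper quartile and 0.12 under quantile scaling, and with the sign turned it need not be the same chromosome. Of 311 tested genes that the naming rule gives, 56 changed call or direction in at least 1 alternative: 5 of 191 named in the report and 51 of 120 left out of it, so the named genes are steadier than the rule set by choice.

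No pairing of libraries by replicate number was detected across fractions: residuals of equal numbers correlated at -0.16, -0.05 and -0.04. With only 3 libraries per fraction, each centred on its fraction mean, these values cannot exclude pairing. With replicate as a block 256 genes were higher, 619 lower and 3024 differed between lines, and the adjusted p was 0.000611 for CD24 and 0.283 for CD44.

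Limits: 3 libraries per fraction of 1 line, replicates not stated to be separate cultures, FPKM without counts, and no measure of sort purity. RNA levels are not protein levels, and bulk libraries average over cells. Sequences were described, and no binding was measured.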
